A study of Mus musculus with 8 samples.

Results

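Small RNAs of NIH-3T3 cells, an immortalised line of mouse embryo fibroblasts, were sequenced at the passage from G1 to S phase after serum was given back to starved cells. The library collected 12 h after serum, labelled G1, was set against the library collected at 16 h, labelled S. These are 2 of the 8 libraries of the series. Cells of both had been passaged in medium with 10% serum, kept without serum for 48 h and then given 20% serum, and the starved cells themselves (0 h, labelled G0), a 20 h (G2/M) and a 24 h (G1) library came from the same experiment. The other 3 libraries came from cells plated at 12% confluency and grown into contact inhibition. They were asynchronous on day 0 and labelled G0 at days 3 and 5. They enter the ratios only through the scaling of the read counts, the reading of the adapter and the choice of arms counted. Their histone fragments are given beside the check of the labels. Each time has 1 library, so no difference between 12 h and 16 h has a replicate check and none carries a p-value. Of 384 mature miRNA arms counted in the series, 191 had at least 100 reads in the 12 h or the 16 h library and are compared here. An arm is the strand cut from the 5′ side (5p) or the 3′ side (3p) of a miRNA hairpin.

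A miRNA guides an Argonaute protein to messenger RNAs that pair with its seed, bases 2 to 8 from its 5′ end, and lowers their translation and stability. Cells returning from starvation raise cyclin D and then cyclin E, whose kinases free E2F transcription factors from the Rb protein and start DNA replication. Several miRNA families are known to act on this step. The miR-16 and let-7 families repress cyclins, Cdk6 and Ras, the miR-34 family is induced by p53 and slows the cycle, and miR-221 and miR-222 repress the Cdk inhibitor p27. The miR-17 to miR-92 cluster and its relatives at Mcm7 are switched on by Myc and E2F and repress Cdk inhibitors and E2F1 itself.

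The mature sequences are printed 5′ to 3′ with the seed in capitals. They come from RefSeq's tables for GRCm38.p6. The first set holds the 9 arms past the minimum of the miR-17 and miR-106b clusters, with 4 seeds among them. Of the 6 cell cycle and serum lists theirs held the most arms at least 2-fold higher at 16 h.
miR-17-5p: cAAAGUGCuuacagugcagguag
miR-20a-5p: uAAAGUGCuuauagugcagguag
miR-106b-5p: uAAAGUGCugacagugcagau
miR-93-5p: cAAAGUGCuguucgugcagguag
miR-18a-5p: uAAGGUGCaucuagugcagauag
miR-19a-3p: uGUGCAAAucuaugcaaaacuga
miR-19b-3p: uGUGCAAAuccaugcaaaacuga
miR-25-3p: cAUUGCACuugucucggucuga
miR-92a-3p: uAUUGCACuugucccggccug

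The second set is the miR-16 family, 6 arms with 1 seed and miR-503-5p, whose seed ends in another base. Its members were spread from lower to 4.01-fold higher at 16 h.
miR-15a-5p: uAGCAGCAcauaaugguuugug
miR-15b-5p: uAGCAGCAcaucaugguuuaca
miR-16-5p: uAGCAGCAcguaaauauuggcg
miR-195a-5p: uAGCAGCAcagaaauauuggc
miR-497a-5p: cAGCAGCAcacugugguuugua
miR-322-5p: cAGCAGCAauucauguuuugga
miR-503-5p: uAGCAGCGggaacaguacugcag

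The third set holds arms with wide differences, ranked by the end of the interval nearest to 1. The first 8 were higher at 16 h, the 6 widest and then miR-33-5p and miR-186-5p, which had reads at 12 h. The other 7 were the widest lower at 16 h. The GC content of the first 20 bases is 35 to 45% in the first 8, 40% in miR-291a-3p and 50 to 70% in the 6 after it.
miR-7a-5p: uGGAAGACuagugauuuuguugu
miR-101b-3p: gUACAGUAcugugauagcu
miR-9-5p: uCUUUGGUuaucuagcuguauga
miR-29a-5p: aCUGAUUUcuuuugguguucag
miR-872-5p: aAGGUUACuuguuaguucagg
miR-377-3p: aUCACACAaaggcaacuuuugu
miR-33-5p: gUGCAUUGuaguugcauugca
miR-186-5p: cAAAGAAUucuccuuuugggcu
miR-291a-3p: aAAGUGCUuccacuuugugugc
miR-1249-3p: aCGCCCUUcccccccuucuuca
miR-324-3p: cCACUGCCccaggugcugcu
miR-532-3p: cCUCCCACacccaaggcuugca
miR-370-3p: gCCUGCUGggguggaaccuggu
let-7d-3p: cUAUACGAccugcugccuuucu
miR-667-3p: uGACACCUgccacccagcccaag

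The libraries themselves differed in ways that touch every ratio. The 12 h library had 8512472 reads and the 16 h library 7071603, but 94.3% and 78.4% of them were marker oligonucleotides, and 194249 and 855471 reads were left for miRNA arms. miRNAs made up 64.6% and 65.6% of the inserts kept. The 12 h library held few kinds of molecule for its size. At 12 h 175 of the 384 arms had no read, 11 had 1 to 19 reads and 121 had 100 or more. At 16 h these numbers were 14, 105 and 188. At 0, 20 and 24 h between 57 and 110 arms had 1 to 19 reads, so the near absence of low counts was seen at 12 h among the serum libraries. Brought to a common depth of 131713 miRNA reads, the 12 h library would hold 209 arms and the 16 h library 336, against 262, 314 and 280 at 0, 20 and 24 h.

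**Figure D1:**
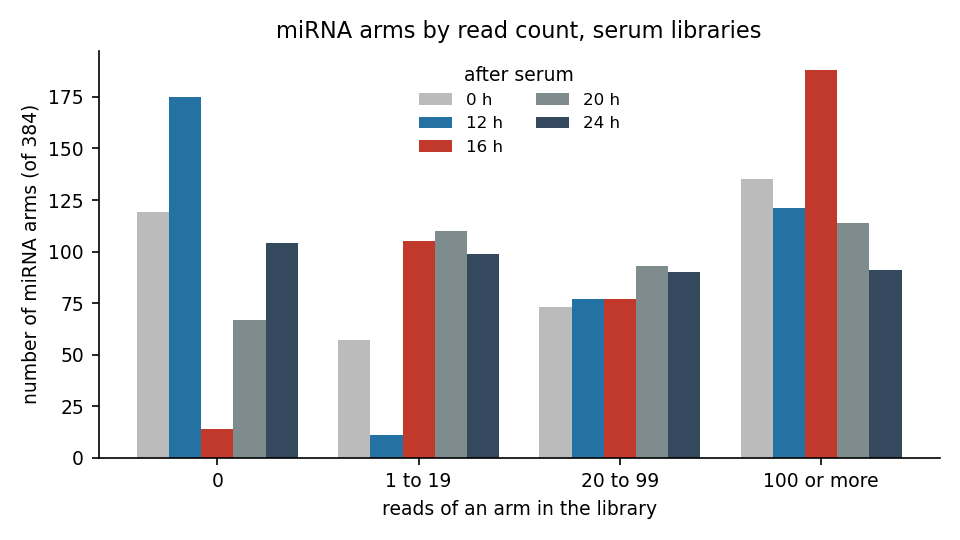
Number of miRNA arms (vertical axis, of 384) by the number of reads an arm had (horizontal axis) in each of the 5 serum libraries. The 12 h bar is the tallest at 0 reads, with 175 arms, and the shortest at 1 to 19 reads, with 11.

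A count of 0 at 12 h therefore says less than its depth alone would allow. Where the 16 h level predicted 40 to 80 reads, 9 of 38 arms had none at 12 h, against 2 of 36 at 0 h, 0 of 42 at 20 h and 0 of 31 at 24 h. For 80 reads or more the numbers were 8 of 136 at 12 h, 0 of 147 at 0 h, 0 of 123 at 20 h and 0 of 117 at 24 h. Where 10 to 20 reads were predicted, 0 h was nearly as short of arms as 12 h, with 15 of 37 at 0 against 19 of 38. Reads in this library come in groups: for all 118 arms with 100 or more reads in both libraries, fewer distinct inserts were seen at 12 h than at 16 h when the reads were matched, with medians of 5 and 18. The reads carry no molecular identifiers, and the intervals given with ratios are 95% and cover counting error only, taking each read as independent. Where an arm has 0 reads the ratio is a lower bound, taken against 3 reads in that library, which is 11.1 counts per 1000000 (CPM) at 12 h and 2.99 CPM at 16 h. Levels are CPM after TMM scaling.

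An arm is called higher or lower at 16 h when its ratio is at least 2 or at most 0.5 and the interval leaves out 1. At 16 h 58 of the 191 arms were higher (30.4%) and 36 were lower (18.8%), or 49.2% in either direction, with a median log2 ratio of 0.29. The 100-read minimum stands at 369 CPM at 12 h and at 99.5 CPM at 16 h, so it lets in low arms more readily from the 16 h side. Among the 191 arms, 118 reached it in both libraries, 70 only at 16 h and 3 only at 12 h. Of the 58 higher arms 21 had 0 reads at 12 h, and 1 of the 36 lower arms, miR-291a-3p, had 0 at 16 h. Among the 118 arms that reached the minimum in both, 16 were higher and 32 lower, so that the excess of higher arms was turned round. With total miRNA reads as the scale the counts were 49 and 45, with TMM over the 2 libraries alone 65 and 26, and the median log2 ratio of all arms moved from 0.29 to 0.038 and 0.46. Changes of single arms are best read against that median.

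**Figure D2:**
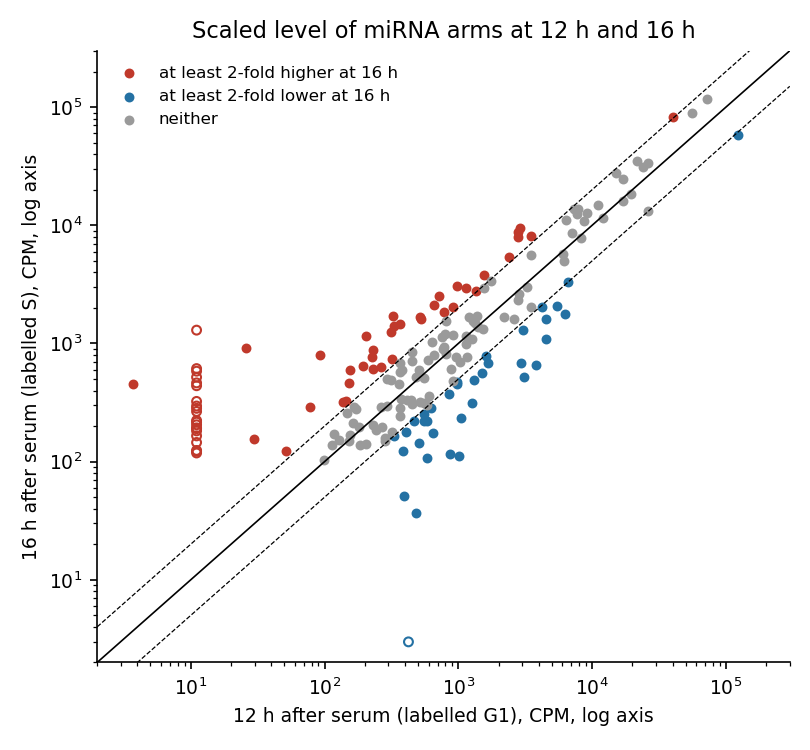
Scaled level of the 191 arms at 12 h (horizontal) and 16 h (vertical), both in CPM on log axes, with the diagonal and the 2-fold lines dashed. Open circles are arms with 0 reads in a library, drawn at the level of 3 reads, and 21 of them stand in a column at 12 h.

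The 12 arms with the widest calls upward were miRNAs of low or middling level, and 10 of them had no read at 12 h. miR-7a-5p, made from 2 hairpins, of which that on chromosome 13 (58392841 to 58392863, minus strand) lies in an intron of Hnrnpk, is a repressor of growth factor receptor signalling. It had 0 reads at 12 h and 1303 at 16 h, at least 117-fold more (interval from 95.2). Its levels at 0, 12, 16, 20 and 24 h were 361, 0, 1297, 942 and 1895 CPM, so that 12 h was the low point, with at least 361 CPM in each of the other 4.

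miR-101b-3p (chromosome 19, in an intron of Rcl1), a repressor of the Polycomb methyltransferase Ezh2, went from 0 to 616 reads, at least 55.4-fold. miR-9-5p, best known from neural cells, went from 0 to 586 reads, at least 52.7-fold, and stood at 164, 0, 583, 178 and 28.6 CPM at the 5 times. Of these, miR-9-5p had its highest level at 16 h and miR-101b-3p too, with 458, 0, 613, 530 and 441 CPM. When reads that begin up to 3 nt away were also counted and the whole insert had to match the hairpin, miR-101b-3p had a log2 ratio of 0.55 and was not called. miR-29a-5p, the passenger strand of an abundant hairpin, went from 0 to 521 reads (at least 46.9-fold), and miR-872-5p, in an intron of Ift74, from 0 to 464 CPM (at least 41.9-fold).

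The arms next in order were miR-377-3p of the imprinted Dlk1-Dio3 locus (0 and 441 reads, at least 39.7-fold, but a log2 ratio of 0.57 and no call by whole inserts), miR-96-5p (0 and 325, at least 29.2-fold), miR-374b-5p in the Ftx gene (0 and 297, at least 26.7-fold), miR-128-3p (0 and 284, at least 25.6-fold) and miR-450a-5p (0 and 267, at least 24.0-fold). With the 12 h reads divided by 30.5, as described below, miR-96-5p, miR-374b-5p, miR-128-3p and miR-450a-5p were not called. Their intervals then began at 0.775, 0.708, 0.677 and 0.636. Only 2 arms of the 12 had reads at 12 h. miR-186-5p, in an intron of Zranb2, had 7 and 927 reads, a ratio of 35.7 (95% interval 17.3 to 89.2). Its levels were 845, 25.8, 923, 1186 and 630 CPM from 0 to 24 h, a dip at 12 h like that of miR-7a-5p. miR-33-5p, a repressor of cholesterol export made from an intron of Srebf2 (chromosome 15, 82198127 to 82198147, plus strand), had 1 and 456 reads, a ratio of 123 (22 to 4872). Its levels were 1133, 3.69, 454 and 56.5 CPM from 0 to 20 h, so it was highest in the starved cells and next at 16 h.

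Higher arms with reads in both libraries have a ratio in place of a bound, though the 12 h counts behind it can be low. miR-28a-3p, in an intron of Lpp with its 5p partner, had 25 and 808 reads, a ratio of 8.72 (5.87 to 13.6). miR-376a-3p of the Dlk1-Dio3 locus had 55 and 1166 reads, a ratio of 5.72 (4.37 to 7.64). miR-31-5p, of the serum-inducible list, had 90 and 1409 reads, a ratio of 4.23 (3.41 to 5.29). All 3 kept their call under every scaling tried, with the GC trend described below removed, and with the 12 h reads divided by 30.5. That is the number of reads per independent count that would give the number of arms at 0. It was fitted to the zeros at 12 h with the 16 h levels taken as unchanged, and the 16 h reads were not divided. Keeping a call under it is therefore a limited check. With that division the intervals of miR-28a-3p, miR-376a-3p and miR-31-5p were 1.36 to 695, 1.49 to 56.2 and 1.43 to 20.9. The direction was kept, but the size of these ratios is poorly known. Of the 58 higher arms 42 kept their call under the scalings and the GC step, and 21 under the division as well. For miR-7a-5p, with 0 reads at 12 h, the interval then began at 3.12.

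The arms lower at 16 h with the widest calls were 3p arms in 10 of 12 cases. miR-1249-3p had 487 CPM at 12 h and 36.8 at 16 h, a ratio of 0.0757 (0.0511 to 0.110). miR-324-3p, from a hairpin that overlaps Dvl2 on chromosome 11 (70012095 to 70012114, plus strand), had 276 and 112 reads, a ratio of 0.110 (0.0871 to 0.137). Its levels at 0, 12, 16, 20 and 24 h were 21.2, 1018, 111, 517 and 412 CPM, with 12 h the highest. let-7d-3p, the passenger strand of let-7d, had 834 and 520 reads, a ratio of 0.168 (0.151 to 0.188). Its levels were 624, 3075, 518, 2480 and 3807 CPM, so that 16 h was near the starved cells and the other 3 released libraries stood together.

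Others in this set were miR-532-3p in an intron of Clcn5 (235 and 117 reads, ratio 0.134), miR-667-3p (1038 and 655, 0.170), miR-433-3p (795 and 690, 0.234), miR-484 (1219 and 1096, 0.243), miR-214-5p (282 and 234, 0.224) and miR-193b-3p (344 and 314, 0.246). miR-370-3p had 395 and 50.8 CPM (ratio 0.129) and miR-323-3p 579 and 106.5 CPM (ratio 0.184). With the GC trend described below removed, miR-667-3p (log2 ratio −0.85) and miR-484 (−0.33) were not called. miR-370-3p, miR-667-3p, miR-323-3p and miR-433-3p are 4 arms of the Dlk1-Dio3 locus. miR-214-5p comes from Dnm3os, a mesenchymal transcript. Its levels were 221, 1040, 233, 217 and 166 CPM, so that only 12 h stood apart. The 12th, miR-291a-3p of the embryonic stem cell cluster on chromosome 7, had 115 reads at 12 h and 0 at 16 h, a level of 424 CPM at 12 h and at least 142-fold lower at 16 h. Of the 36 lower arms 18 kept their call under the scalings and the GC step, and 16 under the division of reads as well.

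The serum libraries place these calls. Of the 58 arms higher at 16 h, 12 h was the lowest of the 5 serum libraries for 46 and 16 h the highest for 30. Of the 36 lower arms, 12 h was the highest for 25 and 16 h the lowest for 14. Over all 191 arms, 12 h was the lowest for 66 and the highest for 43, and 16 h was the highest for 55 and the lowest for 20. The calls were chosen on these 2 libraries, and 21 of the 46 had 0 reads at 12 h, so these numbers only describe them. Counted by the same rule, 27.7% of arms were called between 16 h and 20 h, 23.5% between 12 h and 20 h, 31.5% between 12 h and 24 h, and 9.48% between 20 h and 24 h. From the starved cells, 50.6% were called against 12 h and 20.9% against 16 h. These comparisons share libraries and are not independent of each other.

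The 10 most abundant arms had ratios between 0.468 and 2.03. miR-199a-3p, whose sequence miR-199b-3p shares, is a product of mesenchymal genes. It had 19595 and 117901 reads, or 72252 and 117351 CPM, a ratio of 1.62 (1.60 to 1.65). miR-29a-3p, a repressor of collagen genes, had a ratio of 1.60, miR-24-3p of 1.59, and miR-26a-5p of 1.28. miR-125b-5p, which targets p53 and growth genes, went the other way, from 33599 reads and 123889 CPM to 58240 reads and 57968 CPM, a ratio of 0.468 (0.462 to 0.474). It was the most abundant arm at 12 h, with 17.3% of miRNA reads. Its levels were 44234 CPM at 0 h, 115146 at 20 h and 111828 at 24 h, so that 0 h and 16 h stood together below the other 3. miR-125a-5p, with the same seed, had a ratio of 0.507 and fell just short of the 2-fold limit. With TMM over the 2 libraries alone miR-125b-5p was no longer called. Among the 31 arms with 1000 or more reads at 12 h, 1 was higher at 16 h, miR-21a-5p, and 8 were lower.

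In the miR-17 to miR-92 cluster and its paralogs 7 of the 9 arms past the minimum were higher and none was lower, beside 30.4% and 18.8% of all 191 arms, and the median log2 ratio was 1.25, beside 0.29. miR-20a-5p (Mir17hg, chromosome 14, 115044183 to 115044205, plus strand) had 88 and 1721 reads, a ratio of 5.28 (4.26 to 6.62), and 521, 324, 1713, 460 and 698 CPM from 0 to 24 h. Its highest level was at 16 h, 2.40 log2 units above 12 h. miR-17-5p, cut from the same transcript, had 421 and 3785 reads, a ratio of 2.43 (2.19 to 2.69), and 718, 1552, 3767, 1833 and 2959 CPM. For both, the order of the 4 released libraries was the same at the top, with 16 h first and 24 h next.

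The other arms of that transcript were nearer the 2-fold limit. miR-18a-5p had 72 and 636 reads (ratio 2.38), miR-19a-3p 39 and 330 (2.28) and miR-19b-3p 246 and 2054 (2.25). miR-92a-3p, the last arm of the cluster and made from 2 hairpins, had 752 and 2340 reads and a ratio of 0.840 (0.773 to 0.913), a log2 ratio of −0.25 beside the 2.40 of miR-20a-5p. In the cluster within Mcm7, a gene of the replicative helicase, miR-106b-5p had 177 and 2116 reads, a ratio of 3.23 (2.77 to 3.78), and miR-25-3p 62 and 887, a ratio of 3.86 (2.98 to 5.08). miR-93-5p of the same cluster had 216 and 1217 reads and a ratio of 1.52 (1.31 to 1.77), short of the limit. Of the 4 arms with the seed AAAGUGC, miR-20a-5p and miR-106b-5p, with a GC content of 40% and 45%, had higher ratios than miR-17-5p and miR-93-5p, with 50% and 55%.

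With total miRNA reads as the scale miR-19a-3p and miR-19b-3p were not called, nor with the GC trend removed, which also took the call from miR-18a-5p. miR-17-5p, miR-20a-5p, miR-106b-5p and miR-25-3p were called under each of these and with the 12 h reads divided. miR-18a-5p and miR-19a-3p were not called with that division. Of the list's other members miR-17-3p and miR-106b-3p had 0 reads at 12 h and 56 and 55 at 16 h, under the minimum, and miR-20b-5p, miR-106a-5p and miR-363-3p had none at either time.

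In the miR-16 family 4 of 7 arms were higher and none was lower, beside 30.4% and 18.8% of all arms, and the median log2 ratio was 1.22. miR-15a-5p, in an intron of Dleu2, had 99 and 1470 reads, a ratio of 4.01 (3.27 to 4.96). miR-15b-5p, in an intron of the condensin gene Smc4, had 311 and 2950 reads, a ratio of 2.56 (2.28 to 2.89). miR-16-5p comes from hairpins beside both of these and was by far the most abundant of the family. It had 2986 and 15067 reads, or 11010 and 14997 CPM, a ratio of 1.36 (1.31 to 1.42).

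miR-322-5p and miR-503-5p, neighbours on the X chromosome (miR-322-5p at 53054306 to 53054327, minus strand), are linked to withdrawal from the cycle. miR-322-5p had 946 and 8139 reads, a ratio of 2.32 (2.17 to 2.49), and miR-503-5p 61 and 775, a ratio of 3.43 (2.64 to 4.53). miR-503-5p stood at 3130, 225, 771, 486 and 338 CPM from 0 to 24 h, so that its 16 h level was above the other released libraries and below the starved one. The pair miR-195a-5p and miR-497a-5p on chromosome 11 had 121 and 336 reads (ratio 0.750, 0.607 to 0.931) and 42 and 169 reads (1.09, 0.771 to 1.56). The family's log2 ratios thus ran from −0.42 for miR-195a-5p to 2.00 for miR-15a-5p, with 1 seed in common to 6 of the 7. With the GC trend removed miR-15b-5p and miR-322-5p were not called. With total miRNA reads as the scale miR-322-5p was not. With the 12 h reads divided miR-503-5p was not called (0.946 to 28.4), while miR-15a-5p, miR-15b-5p and miR-322-5p were.

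The let-7 family with miR-98, repressors of Ras, Hmga2 and cell cycle genes, had 2 of 9 arms higher and none lower, with a median log2 ratio of 0.80. let-7g-5p had 651 and 5396 reads, a ratio of 2.24 (2.06 to 2.43), and miR-98-5p 369 and 2776, a ratio of 2.03 (1.82 to 2.27). The other 7 ran from let-7b-5p, with 5307 and 18547 reads and a ratio of 0.943, to let-7f-5p, with 4123 and 27941 reads and a ratio of 1.83. let-7a-5p stood at 1.43, let-7c-5p at 1.29, let-7e-5p at 1.22, let-7d-5p at 1.74 and let-7i-5p at 1.74. let-7b-5p has the highest GC content of the 9, 50% in its first 20 bases, and let-7f-5p and miR-98-5p the lowest, 35%. With the GC trend removed the list's median was −0.049 and none of the 9 was called. The share of 2 called in 9 is near the 30.4% of all arms.

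Of the miR-34 family 4 arms passed the minimum. miR-34a-5p had 42 and 596 reads, a ratio of 3.83 (2.80 to 5.37), and miR-34b-5p 53 and 642, a ratio of 3.27 (2.47 to 4.41). With the 12 h reads divided neither was called, with intervals of 0.846 to 64.3 and 0.832 to 34.3. The pair shares a seed, and both had their highest level at 0 h or 16 h, with 473, 154.9, 593, 287 and 137 CPM for miR-34a-5p and 876, 195.4, 639, 182 and 235 CPM for miR-34b-5p. The other arm of the second hairpin, miR-34b-3p, had 149 and 255 reads and was lower, at a ratio of 0.462 (0.376 to 0.569). This call was lost with TMM over the 2 libraries alone and with the 12 h reads divided. miR-34c-3p, with the seed of miR-34b-3p, had 32 and 172 reads and a ratio of 1.45 (0.990 to 2.19), an interval that reaches below 1.

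miR-221-3p and miR-222-3p, repressors of p27, showed ratios of 0.803 (1686 and 5013 reads) and 0.937 (2244 and 7786 reads). These are differences of under 2-fold in arms of high level. miR-221-5p, the passenger strand, had 0 and 123 reads, at least 11.1-fold more at 16 h. Among serum-inducible miRNAs 3 of 6 arms past the minimum were higher and none lower, beside 30.4% and 18.8% of all arms. Their median log2 ratio was 0.70, and −0.032 with the GC trend removed. miR-21a-5p, a growth-factor inducible miRNA in the Vmp1 gene, had 10996 and 82682 reads, a ratio of 2.03 (1.99 to 2.07), which is at the limit, and 74576, 40545, 82296, 48230 and 48907 CPM from 0 to 24 h. Here again 0 h and 16 h stood together, above the other 3. With the GC trend removed its log2 ratio was −0.049. miR-21a-3p had 0 and 194 reads, at least 17.5-fold. Neither miR-21a-3p nor miR-221-5p was called with the 12 h reads divided. miR-155-5p, an early response miRNA, had 710 and 1608 reads, a ratio of 0.611 (0.559 to 0.669), and stood at 42.4, 2618, 1601, 1272 and 1586 CPM, with 12 h the highest. miR-146b-5p had a ratio of 1.30 and miR-31-3p of 1.26. miR-132-3p, another early response miRNA, had 58 and 48 reads, under the minimum at both times.

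**Figure D3:**
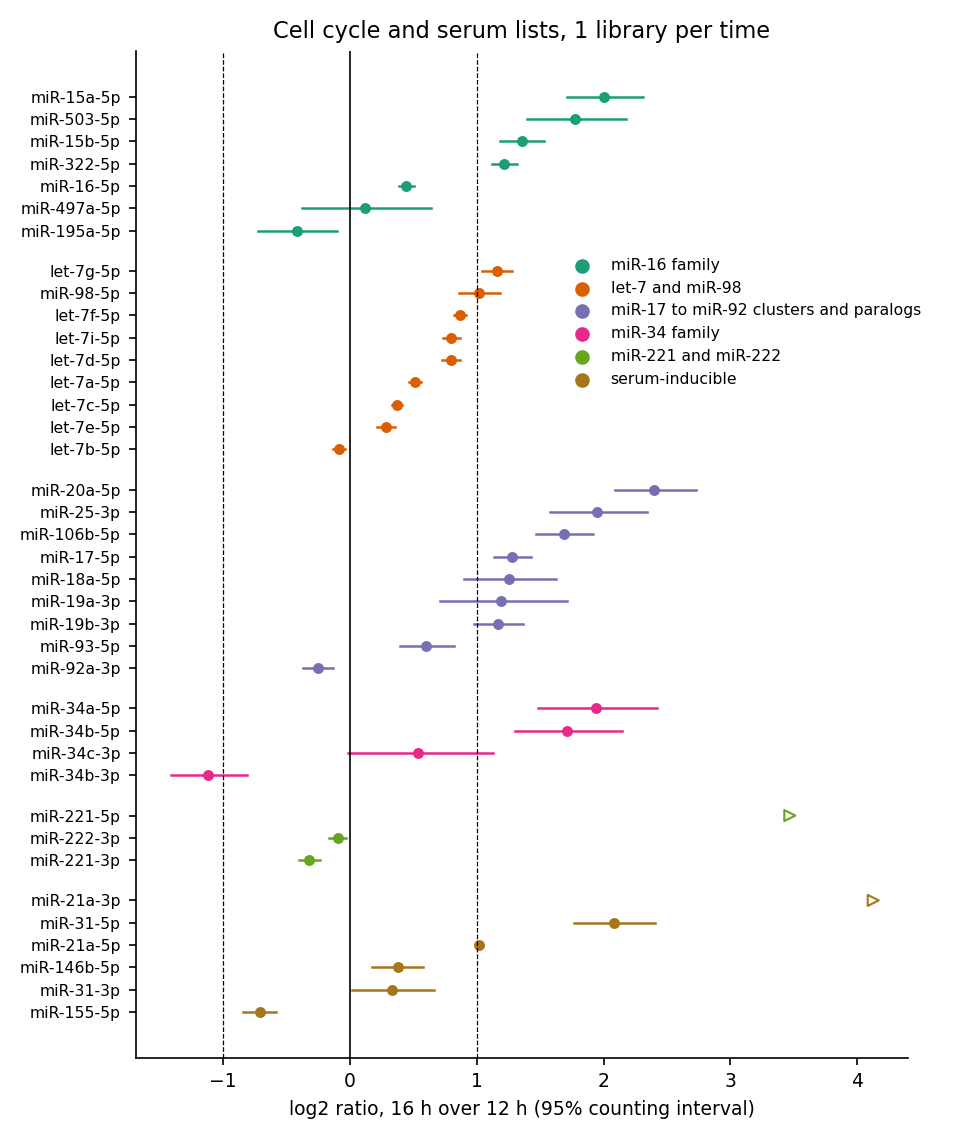
Log2 ratio of 16 h over 12 h (horizontal) for each arm past the minimum in 6 lists, with 95% counting intervals and the 2-fold limits dashed. Triangles are nominal lower bounds, taken against 3 reads, for arms with 0 reads at 12 h. The miR-17 and miR-16 lists reach from below 0 to 2.40 and 2.00, and the 9 let-7 arms lie between −0.084 and 1.16.

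Further lists of miRNA families held 3 to 9 arms each and are to be read beside the 30.4% higher and 18.8% lower of all arms. In the miR-29 family 4 of 5 arms were higher, with a median log2 ratio of 1.70. miR-29b-3p had 785 and 9454 reads (ratio 3.25, 3.02 to 3.50) and miR-29c-3p 143 and 1620 (3.06, 2.58 to 3.65), while miR-29a-3p, with the same seed and 15173 and 90007 reads, stood at 1.60. With the GC trend removed miR-29b-3p had a log2 ratio of 0.63 and was not called. Among miR-23, miR-27 and miR-24 arms, 4 of 6 were higher and the median was 1.63. miR-27a-3p, a repressor of adipocyte differentiation, had 759 and 8765 reads (3.12, 2.89 to 3.36), and miR-27b-3p 719 and 2531 CPM (3.52, 3.04 to 4.09). miR-23a-3p, from the hairpin next to that of miR-27a, had 4602 and 16047 reads and a ratio of 0.941, so that arms of 1 cluster stood on either side of the limit.

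In the miR-30 family 4 of 6 arms were higher with a median of 2.35, and 3 of the 4 were 3p arms with 0 reads at 12 h. None of the 4 was called with the 12 h reads divided. The list of miR-130 and miR-301 with miR-148 and miR-152 had 2 of 6 higher and a median of 0.88, among them miR-130a-3p with 762 and 7985 reads and a ratio of 2.83 (2.63 to 3.05), a log2 ratio of 0.88 and no call with the GC trend removed. miR-26 and miR-101 had 1 of 4 higher and a median of 0.78, and miR-181 0 of 3 and a median of 0.66. Of miR-33, miR-103, miR-107, miR-210 and miR-378, 3 arms passed the minimum, miR-33-5p was higher, and miR-210-3p, induced by low oxygen, had a ratio of 0.918. The list of miR-99 and miR-100 with miR-125 and miR-10 had 2 of 9 higher and 1 lower. There miR-10b-5p, from the Hoxd cluster, had 264 and 3072 reads, a ratio of 3.14 (2.77 to 3.58), whereas miR-10a-5p, with its seed, had 50 and 139 and a ratio of 0.750 (0.540 to 1.06).

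The imprinted Dlk1-Dio3 region of chromosome 12, which holds a long run of hairpins, had 49 arms past the minimum of 83 with reads, 7 of them higher and 12 lower, beside 30.4% and 18.8% of all arms. The median log2 ratio was −0.37 beside 0.29. Of the 12 lower arms 11 were 3p. Most of the 49 arms of the locus past the minimum were 3p too, beside 47.1% of all 191. The higher arms were miR-377-3p, miR-329-5p, miR-154-5p, miR-376a-5p, miR-376a-3p, miR-136-5p and miR-369-3p, of which the last 2 were not called with the GC trend removed (log2 ratios of 0.072 and −0.74). miR-329-5p, miR-154-5p and miR-376a-5p had 206, 191 and 119 reads at 16 h and 0 at 12 h. They were not called with the 12 h reads divided. The most abundant arm of the locus among those described, miR-127-3p, a regulator of Rtl1, had 3290 and 11480 reads and a ratio of 0.942, with 12799, 12131, 11427, 10857 and 10990 CPM from 0 to 24 h. Its level stayed within a narrow range over all 5 serum libraries.

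The markers of fibroblasts or mesenchymal cells were present at both times and took 17.98% of miRNA reads at 12 h and 25.5% at 16 h. Of their 6 arms past the minimum miR-21a-5p was higher, miR-214-3p (ratio 0.475, a log2 ratio of −0.51 and no call with the GC trend removed) and miR-214-5p were lower, and miR-199a-5p had a ratio of 1.38. Epithelial markers had 0 reads at 12 h and 13 at 16 h in all, of which miR-200c-3p had 9 and miR-205-5p 4. Blood markers had 0 and 2, both of miR-451a. Summed levels at 0, 20 and 24 h were 2076, 52.1 and 0 CPM for epithelial and 188, 0 and 0 CPM for blood markers. Of muscle markers miR-206-3p had 44 and 214 reads and a ratio of 1.31. Of neural markers miR-9-5p and miR-128-3p were higher, but miR-9-3p had 94 and 63 reads, under the minimum, and a ratio of 0.181, opposite to its partner arm. Some stem cell markers were seen chiefly at 12 h, miR-291a-3p with 115 reads, miR-293-3p with 83 and miR-294-3p with 85, against 0, 0 and 1 at 16 h. Others were not: miR-295-3p had 38, 0 and 1 reads and miR-293-5p 12, 0 and 0 reads at 0, 12 and 16 h. The summed level of the 5 stem cell marker arms with reads in the series, of 26 listed, was 1044 CPM at 12 h and 1.99 CPM at 16 h, and 193.9, 43.4 and 11.4 CPM at 0, 20 and 24 h. Their part in the other results was not tested. In bulk RNA, fewer cells with a miRNA and less of it per cell cannot be told apart.

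Base composition moved with the ratios. Of 67 arms with a GC content of 25 to 40% in the first 20 bases, 30 were higher and 7 lower, with a median log2 ratio of 0.70. Of 33 arms at 60 to 70%, 2 were higher and 16 lower, with a median of −0.92. The 38 arms at 45% had a median of 0.70 with 12 higher and 3 lower, and the 53 arms at 50 to 55% one of 0.12 with 14 higher and 10 lower. The difference between the lowest and highest band was 1.61 log2 units, and Spearman's rho across the 191 arms, which share 2 libraries, was −0.42. The lower arms had a median GC content of 55%, the higher ones of 40%.

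The other pairs of serum libraries, which share these libraries, gave the following differences between the same bands. From 16 h to 20 h it was −1.20 log2 units (rho 0.46, 188 arms), from 12 h to 20 h 0.12 (rho −0.084, 136 arms) and from 12 h to 24 h 0.094 (rho −0.068, 130 arms). From 0 h to 12 h it was −1.88 (rho 0.37) and from 0 h to 16 h 0.35 (rho −0.060). Among the pairs compared, the differences over 1 log2 unit were from 0 h to 12 h, from 12 h to 16 h and from 16 h to 20 h. The pairs of 0 h with 20 h or 24 h, and of 16 h with 24 h, were not compared. The 0 h and 16 h libraries had the smallest shares of marker reads, 62.3% at 0 h and 78.4% at 16 h, against 93.9 to 94.8% in the other 3. Whether the time after serum or the making of the libraries goes with this trend cannot be told apart with 1 library per time. With a smooth trend on GC taken from the log2 ratios, 47 arms were higher and 34 lower, of which 43 and 24 had been called the same way before. Within a GC content of 40 to 50%, 36 of 112 arms were higher and 13 lower.

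**Figure D4:**
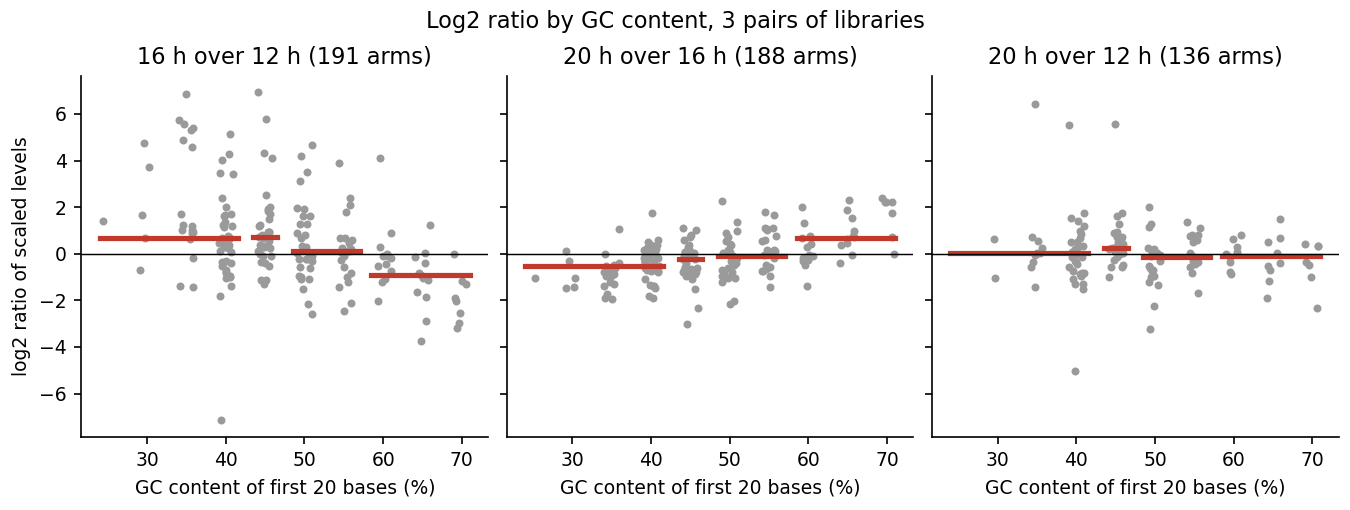
Log2 ratio of scaled levels (vertical) against the GC content of an arm's first 20 bases (horizontal, spread sideways to part the points) for 16 h over 12 h, 20 h over 16 h and 20 h over 12 h. Red lines are medians of 4 GC bands. They run from 0.70 down to −0.92 in the first panel and from −0.54 up to 0.66 in the second, and the outer bands stand at 0.031 and −0.085 in the third.

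Both arms of 38 hairpins passed the minimum, and they often differed. Arms made from more than 1 hairpin, such as miR-125b-5p and miR-24-3p, entered a pair with all their reads. In 24 pairs the log2 ratios had the same sign, in 23 they were over 1 log2 unit apart, and the median difference was 1.68. The widest gaps, in Mir872, Mir125a, Mir29a and Mir329, had an arm with 0 reads at 12 h, as had several others. Such gaps rest on the 3 reads put in for that arm. The 2 arms were called the same way in 8 hairpins and in opposite ways in 3. In Mir872 the 5p arm had 0 reads at 12 h and was at least 41.9-fold higher at 16 h, and the 3p arm had 265 and 456 reads (ratio 0.464). In Mir324, miR-324-5p had 37 and 323 reads (2.36) against 276 and 112 for miR-324-3p, so the arm with more reads at 12 h was the one with fewer at 16 h. The third was Mir34b, given above. With the 12 h reads divided, miR-872-3p, miR-324-5p and both arms of Mir34b lost their calls, so none of these 3 opposite pairs was left. In Mirlet7d, let-7d-5p had a ratio of 1.74 and let-7d-3p of 0.168, which is 3.37 log2 units apart. Arms called in 1 direction included both arms of Mir29b-1, Mir27a, Mir376a, Mir21a and Mir30a (higher) and of Mir214, Mir296 and Mir423 (lower).

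**Figure D5:**
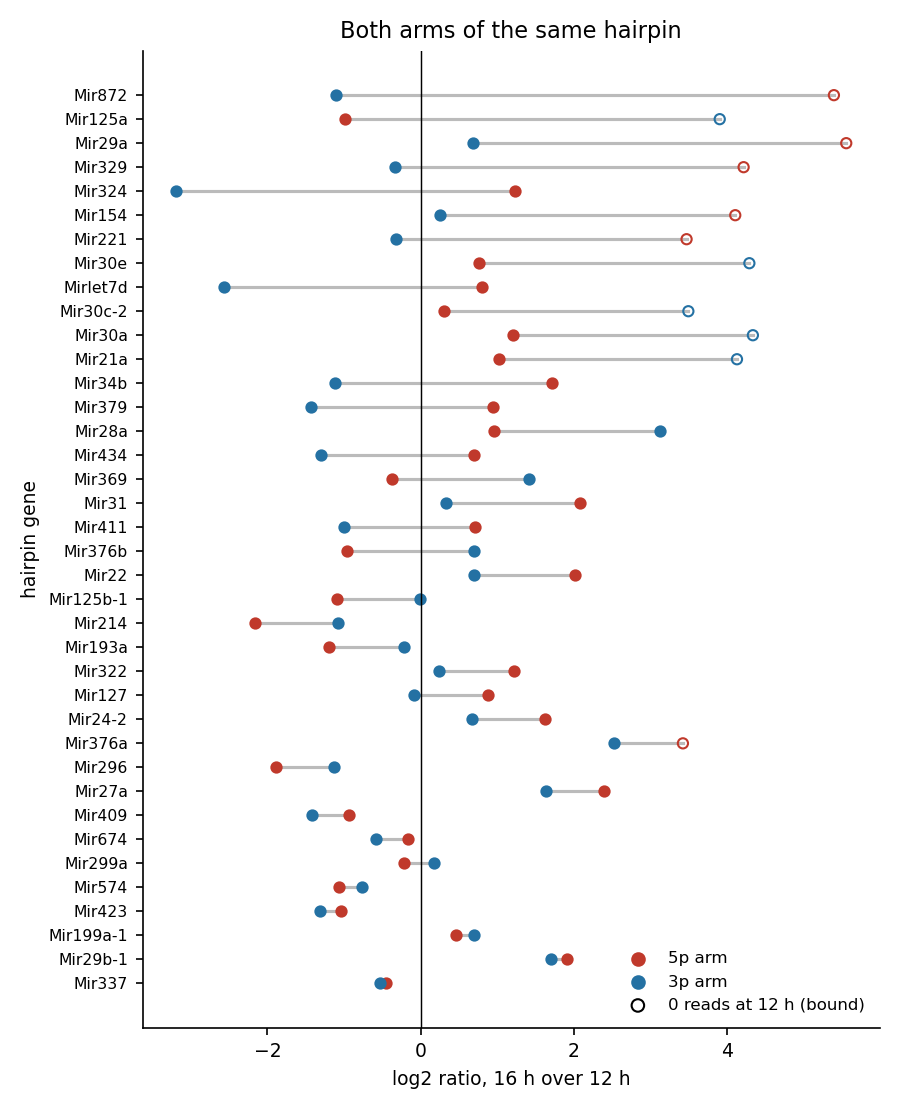
Log2 ratio of 16 h over 12 h (horizontal) of the 5p arm (red) and 3p arm (blue) of each of 38 hairpins, ordered by the gap between them. Open circles are nominal bounds, taken against 3 reads, for arms with 0 reads at 12 h. Mir872 has the widest gap, 6.50 log2 units, and Mir337 the narrowest, 0.074.

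Over all arms 3p arms were more frequent among the lower calls. They made up 24 of the 36 lower and 20 of the 58 higher arms, and 47.1% of the 191. Of 23 seeds held by 67 of the 191 arms, 0 had calls both ways, although in several 1 member was called and others were not. Opposite calls could be seen only for seeds with at least 2 called arms, and many of the 23 had fewer. The 0 was not set against a chance share. Members of 1 seed share sequence and so base composition, and near-identical members can take each other's reads. Clusters of hairpins within 10 kb were counted without arms made from more than 1 hairpin. All 4 such arms of Mir17 to Mir20a were higher and 2 of 3 of Mir25 to Mir106b. Left out of the first were its neighbours miR-19b-3p (higher) and miR-92a-3p (not called), made from 2 hairpins each, so that cluster was not uniform. In the run from Mir379 to Mir410, 6 of 36 arms were higher and 9 lower, and in Mir182 to Mir183, 1 was higher (miR-96-5p) and 1 lower.

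Read ends were compared where both libraries had enough reads. For the 118 arms with 100 or more reads in both, the mean insert length differed by a median of −0.014 nt from 12 h to 16 h. It differed by under 0.25 nt for 72 arms, and 97 arms had the same most frequent length.

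Fragments of replication-dependent histone messenger RNAs, which build up in S phase, were counted as a check of the labels. Sense inserts of at least 20 nt matching transcripts of 67 such genes made up 0 of 300486 kept inserts at 12 h, which allows up to 0.00123% (exact binomial), and 78 of 1304012 at 16 h, or 0.00598% (0.00473 to 0.00747). The 78 reads were 36 distinct inserts. The share was 0.00515% at 20 h (0.00288 to 0.00849, 15 reads), 0.00216% at 24 h (0.000701 to 0.00504, 5 reads) and 0 at 0 h (up to 0.000809%). The 12 h and 16 h intervals did not overlap, while those of 16 h and 20 h did. Cells labelled G0 in the contact experiment had such fragments too, 0.00367% on day 3 and 0.00284% on day 5, beside 0.00388% on day 0, so the share does not by itself mark S phase. These are fragments in a small-RNA library and no measure of histone messenger level, and the intervals take each read as independent, in the 12 h library of low complexity too. No cell count per phase is given in the labels.

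At the edges of the rules the values were as follows. Just above the 100-read minimum stood miR-500-3p (99.6 and 102.5 CPM, ratio 1.03), miR-370-3p and miR-291a-3p. Just below it were miR-190a-5p (0 and 99, at least 8.91-fold higher), miR-181c-5p (0 and 95, at least 8.55-fold) and miR-9-3p. Just past the 2-fold limit stood miR-411-3p and miR-485-3p (each at 0.498) and miR-21a-5p, and just short of it miR-125a-5p, miR-376b-5p (0.514) and miR-28a-5p (1.94). With TMM over the 2 libraries alone miR-411-3p and miR-485-3p were not called, so calls near the limit turn on the scale.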

How the data were processed

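Each of the deposited files lists 36-nt reads with their counts, 1 line for every different read and the 3′ adapter still attached. The labels' protocols describe library preparation only by reference to an earlier publication, and for read calling, filters and builds the authors' settings were not given in the sources used here. The adapter, read off from the data, was removed where at least 6 bases were seen, with 1 mismatch per 8. Inserts sharing 12 bases with either of 2 frequent sequences of 18 and 30 nt, or within 3 edits of one (edlib 1.3.9.post1), were taken to be marker oligonucleotides and left out. Inserts of 16 to 30 nt were counted for a mature arm when their first 20 bases were identical to it (Python 3.11.15). Of 1738 mature entries in RefSeq's tables for GRCm38.p6, 384 arms had 10 or more reads over the 8 libraries and no match in another small RNA of GENCODE M21, whose GRCm38 annotation gave the genes around them. Of these arms 30 come from more than 1 hairpin, whose reads cannot be assigned.

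Counts were scaled by TMM over all 8 libraries (edgeR 4.0.16). Ratios have 95% exact conditional binomial intervals, and the calculation was tested on simulated data. The simulated reads were independent, as the intervals assume, so the grouped reads of the 12 h library were not covered by that test. Named arms were the 12 widest calls each way, the 10 most abundant, all members of 6 lists, and those at the limits. For the remaining lists and the arm pairs, members are named from the tables, among them miR-28a-3p, miR-376a-3p and miR-10b-5p, chosen after their values were seen. The comparison, its members and the lists were chosen with earlier results of these data known. The list of miRNAs from the Sfmbt2 intron, and members without an entry in the tables, such as miR-34c-5p and miR-222-5p, were not analysed here. Alternatives varied scaling, GC, minimum reads, matching, trimming and the fold limit.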

Additional observations from a re-analysis of the deposited data

How the results depend on the processing

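No paired analysis was possible because each time has 1 library and no test was made. Counts of arms higher and lower at 16 h, 58 and 36 as reported, stayed within 1.5 times under 4 other scalings, removal of the GC trend, other trimming and matching, single-hairpin arms and a 1.5-fold limit (47 to 83 and 26 to 49). They were 104 and 65 with a minimum of 20 reads, 34 and 14 with 500, and 30 and 12 at 4-fold. Fewer arms enter at the stricter limits. With 100 reads in both libraries 16 were higher. Alternatives chosen after seeing the data gave 31 higher with the 12 h reads divided, 36 and 13 for a GC content of 40 to 50%, and 38 higher with the same CPM minimum in both libraries. The GC difference of 1.61 was 0.987 with 500 reads.

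The share of higher among all calls was 61.7%, and 52.1% with total miRNA reads, 71.4% with TMM over the 2 libraries and 33.3% with 100 reads in both. Of 47 named arms with a call, 27 kept it in all 9 settings compared and 4 (miR-15a-5p, miR-291a-3p, miR-370-3p and miR-532-3p) in the others but had no value with whole inserts, 11 lost it with the GC trend removed, 6 with total reads and 4 with TMM over the 2 libraries. Signs turned as follows, and the cause was not tested. Without the GC trend miR-21a-5p and miR-98-5p stood at −0.049 (log2), and the medians of let-7 and miR-98 at −0.049, serum-inducible at −0.032, miR-26 and miR-101 at −0.093, and miR-99 and miR-100 with miR-125 and miR-10 at 0.45. The last was 0.17 with TMM over the 2 libraries and 0.053 with 18 bases for counting. The median of miR-221 and miR-222 was 0.082 with TMM over the 2 libraries and 0.072 with whole inserts in the hairpin. That of miR-181 was −0.50 with 18 bases and −0.70 with whole inserts. Requiring 10 adapter bases equals inserts up to 26 nt at this read length.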
